A study of Mus musculus with 10 samples.

Results

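The transforming growth factor beta (TGF-β) genes described here are 3 ligands (*Tgfb1*, *Tgfb2* and *Tgfb3*), 3 receptors (*Tgfbr1*, *Tgfbr2* and *Tgfbr3*) and 4 latent TGF-β binding proteins (*Ltbp1*, *Ltbp2*, *Ltbp3* and *Ltbp4*). They were chosen by gene symbol, with earlier results of these data known. All 10 were found among the 19214 gene symbols of the deposited transcript tables, and each was above 0 in each of the 10 libraries. The main features of their mRNA were a high level of *Ltbp4* in PDGFRα+ cells, a high share of *Tgfb3* in interstitial cells of Cajal (ICC), and a low ratio of *Tgfbr2* to *Tgfbr1* in smooth muscle cells (SMCs).

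TGF-β is secreted in a latent form. The mature dimer stays enclosed by its own propeptide, and a latent TGF-β binding protein is joined to that propeptide by disulfide bonds and anchors the complex to fibrillin fibres of the extracellular matrix. Integrins, proteases and thrombospondin can free the dimer, which then binds the type II receptor TGFBR2. TGFBR2 recruits and phosphorylates the type I receptor TGFBR1, and this kinase passes the signal to SMAD2 and SMAD3, while the co-receptor betaglycan, encoded by *Tgfbr3*, presents ligand and above all TGF-β2. In the gut wall the pathway is known for its part in contractile differentiation of SMCs, in matrix production and fibrosis, and in restraint of mucosal immunity.

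The study sequenced mRNA of C57BL/6 mice at 4 weeks of age, with 1 library for each of 10 conditions. PDGFRα+ cells, fibroblast-like interstitial cells, were sorted by eGFP from Pdgfra eGFP/+ mice, out of the colonic mucosa, the colonic muscle layer and the jejunal muscle layer, and the unsorted colonic mucosa came from the same strain. ICC, the pacemaker cells of the gut, were sorted by copGFP from colonic and jejunal muscle of Kit copGFP/+ mice. SMCs were sorted by eGFP from colonic and jejunal muscle of smMHC Cre-eGFP/+ mice, in which the smooth muscle myosin promoter drives Cre and eGFP, and cells of many mice were pooled. Unsorted colonic and jejunal smooth muscle (SM) tissue is listed in the labels under Kit copGFP/+, whereas the study's methods describe smMHC Cre-eGFP/+ mice. Each sorted population carries 1 reporter allele of its own, so cell type and strain cannot be told apart. In PDGFRα+ cells and ICC the reporter replaces 1 copy of *Pdgfra* or *Kit*.

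With 1 library per condition there is no spread between replicates, and no test or p-value was possible. Levels are FPKM, fragments scaled to transcript length and to the mapped fragments of the library, summed over the transcript variants of a gene. The tables hold no counts and no confidence intervals, so the depth behind a value and its counting error are unknown. Ratios are log2 of FPKM + 1 over FPKM + 1, which understates the differences of genes near 0, and a gene was counted as higher or lower where it was at least 2-fold apart on this scale. Jejunal, colonic and mucosal libraries stand in 3 separate tables, so levels set across organs or between mucosa and muscle carry that limit.

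The sorted populations were checked against marker genes before the TGF-β genes were read. *Pdgfra* stood at 228 FPKM in mucosal PDGFRα+ cells and 11.0 FPKM in mucosa, and at 230 FPKM in colonic PDGFRα+ cells and 47.4 FPKM in colonic SM tissue. Of 5 PDGFRα+ cell markers, 4 were at least 2-fold higher in colonic PDGFRα+ cells than in SM tissue. The other, *Dpp4*, was lower, at 1.00 against 9.15 FPKM. In mucosal PDGFRα+ cells over mucosa 4 of the markers reached 1 FPKM, with 2 higher and 1 lower, *Dpp4*, at 3.22 against 14.9 FPKM. *Kit* stood at 792 FPKM in colonic ICC and 41.4 FPKM in colonic SM tissue, and at 468 FPKM in jejunal ICC and 29.4 FPKM in jejunal SM tissue. *Myh11*, the smooth muscle myosin heavy chain, reached 3807 FPKM in colonic SMCs and 3773 FPKM in jejunal SMCs. One library went against its label. The library labelled jejunal PDGFRα+ cells held 34.0 FPKM of *Pdgfra*, below the 57.0 FPKM of its SM tissue, and its 1677 FPKM of *Myh11* and 219 FPKM of the neuronal gene *Uchl1* were far above those of colonic PDGFRα+ cells (134 and 20.6 FPKM). Of the 5 PDGFRα+ cell markers, 0 were at least 2-fold higher and 0 lower in it than in jejunal SM tissue. Of the 6 fibroblast matrix genes, 3 were higher, *Dcn*, *Lum* and *Dpt*. This library is called the library labelled jejunal PDGFRα+ cells throughout, and no cell type difference is read from it. Mucosal PDGFRα+ cells still held 144 FPKM of the epithelial gene *Epcam*, against 595 FPKM in mucosa. Jejunal ICC and jejunal SMCs held 53.5 and 15.3 FPKM summed over 4 pancreatic acinar genes, whereas colonic ICC held 0.229 FPKM.

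Across the 10 libraries the 10 genes spanned 0.11 FPKM (*Ltbp2* in colonic mucosa) to 666 FPKM (*Ltbp4* in colonic PDGFRα+ cells). *Tgfbr1* varied least, with a highest level 1.89 times its lowest, and *Ltbp2* varied most, by 192-fold. *Tgfb2*, *Tgfb3* and *Ltbp3* varied by 37.9-fold, 32.2-fold and 32.4-fold. Colonic mucosa was the lowest library for 7 of the 10 genes, and the exceptions were *Tgfbr1*, *Tgfbr2* and *Ltbp4*. Because there are no replicates, it cannot be said which neighbours in these orders differ by more than the error of a library. In a bulk library, fewer cells of a type and less RNA per cell cannot be told apart.

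**Figure D1:**
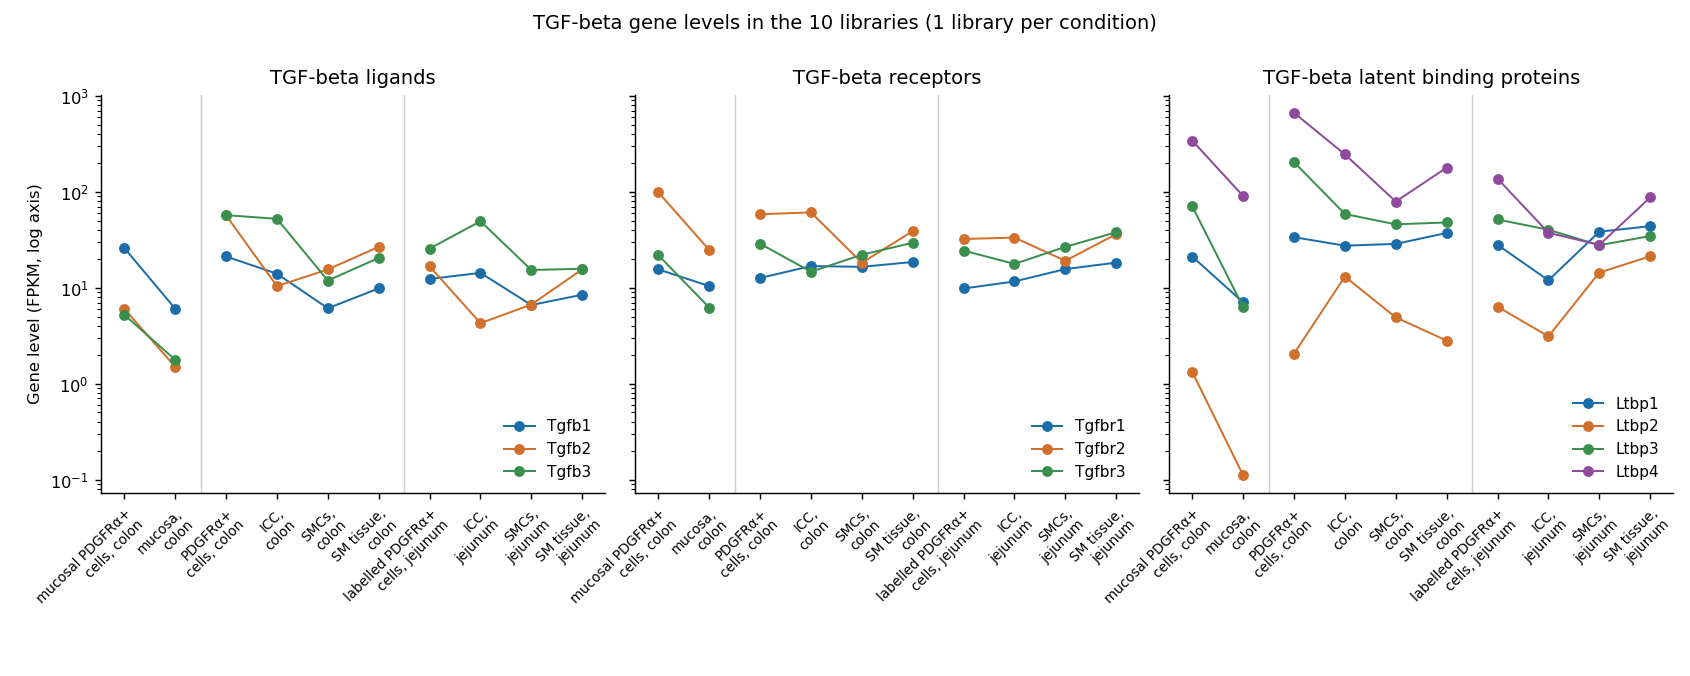
Gene level in FPKM on a log axis (vertical) in each of the 10 libraries (horizontal) for the 3 ligands, the 3 receptors and the 4 latent TGF-β binding proteins, 1 point per library and gene, with lines that only join libraries of 1 table. *Ltbp4* is the highest of the 10 genes in 8 libraries and reaches 666 FPKM in colonic PDGFRα+ cells, while *Tgfbr1* stays between 9.81 and 18.5 FPKM.

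*Tgfb1* (XLOC_126362 in the tables) lies on chromosome 7 at 26464960 to 26490096 of mm9 and encodes the ligand best known from immune regulation and fibrosis. It stood at 25.9 FPKM in mucosal PDGFRα+ cells and 6.04 FPKM in mucosa. In colonic muscle it stood at 21.2 FPKM in PDGFRα+ cells, 14.0 FPKM in ICC, 6.10 FPKM in SMCs and 9.82 FPKM in SM tissue. The jejunal levels were 12.3 FPKM in the library labelled PDGFRα+ cells, 14.3 FPKM in ICC, 6.60 FPKM in SMCs and 8.45 FPKM in SM tissue. In both organs the SMCs were thus the lowest of the 4 muscle libraries. A single variant of 3911 bases carried the whole level in all 10 libraries, and the assembly classed it as sharing a splice junction with the reference mRNA, not as a complete match to it.

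*Tgfb2* (XLOC_001452) lies on chromosome 1 at 188446415 to 188530707 and encodes the ligand that depends most on betaglycan for binding TGFBR2. Its level was 6.01 FPKM in mucosal PDGFRα+ cells and 1.5 FPKM in mucosa. Colonic PDGFRα+ cells held 56.7 FPKM, the highest of all libraries, against 10.4 FPKM in ICC, 15.5 FPKM in SMCs and 26.7 FPKM in SM tissue of the colon. The jejunum showed 16.7 FPKM in the library labelled PDGFRα+ cells, 4.27 FPKM in ICC, 6.67 FPKM in SMCs and 15.5 FPKM in SM tissue. ICC were the lowest of the 4 muscle libraries in each organ. Most of the level came from a pair of variants of 3622 and 5001 bases that share a junction with the reference mRNA. The complete match to that mRNA, of 5792 bases, made up 0.232% to 5.82% of *Tgfb2* in 9 libraries and 30.2% in jejunal ICC.

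*Tgfb3* (XLOC_028994) lies on chromosome 12 at 87397693 to 87419991 and encodes the ligand known from palate fusion and wound repair. It stood at 5.22 FPKM in mucosal PDGFRα+ cells and 1.77 FPKM in mucosa. Colonic muscle held 57.1 FPKM in PDGFRα+ cells, 52.2 FPKM in ICC, 11.9 FPKM in SMCs and 20.4 FPKM in SM tissue. Jejunal muscle held 25.6 FPKM in the library labelled PDGFRα+ cells, 49.3 FPKM in ICC, 15.3 FPKM in SMCs and 15.7 FPKM in SM tissue. The level in ICC was thus alike in the 2 organs and several times that of SMCs in each, and in jejunal ICC *Tgfb3* was the most abundant of the 10 genes. The complete match to the reference mRNA made up 69.5% to 81.2% of *Tgfb3* over the 10 libraries.

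*Tgfbr1* (XLOC_095289) lies on chromosome 4 at 47365112 to 47427797 and encodes the type I receptor kinase. It stood at 15.5 FPKM in mucosal PDGFRα+ cells and 10.4 FPKM in mucosa, and at 12.6 FPKM in PDGFRα+ cells, 16.8 FPKM in ICC, 16.5 FPKM in SMCs and 18.5 FPKM in SM tissue of the colon. In the jejunum it stood at 9.81 FPKM in the library labelled PDGFRα+ cells, 11.6 FPKM in ICC, 15.6 FPKM in SMCs and 18.3 FPKM in SM tissue. Both SM tissues headed this order, and no library was 2-fold away from another.

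*Tgfbr2* (XLOC_146905) lies on chromosome 9 at 115996717 to 116084481 and encodes the type II receptor, which binds the ligand first. It reached 98.9 FPKM in mucosal PDGFRα+ cells, against 24.8 FPKM in mucosa. Colonic PDGFRα+ cells and ICC held 58.3 and 61.0 FPKM, colonic SMCs 18.2 FPKM and colonic SM tissue 38.8 FPKM. In the jejunum the library labelled PDGFRα+ cells held 32.2 FPKM, ICC 33.3 FPKM, SMCs 19.1 FPKM and SM tissue 36.2 FPKM. SMCs were the lowest of the muscle libraries in both organs. The type II to type I ratio, *Tgfbr2* over *Tgfbr1* in FPKM, was 6.37 in mucosal PDGFRα+ cells, 4.62 in colonic PDGFRα+ cells and 3.63 in colonic ICC, against 1.1 in colonic SMCs. It was 2.87 in jejunal ICC and 1.22 in jejunal SMCs, and the 2 SM tissues lay between, at 2.10 in colon and 1.98 in jejunum.

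*Tgfbr2* was read as a pair of known forms that differ by 1 exon, and its sequence is shown because both forms were present in all 10 libraries. The longer form has 4788 bases and the shorter 4713. The exon that parts them has 75 bases, or 25 codons, and is exon 2 of the 8 exons of the longer form in the annotation, where the shorter form has 7. It is coding, adds residues to the extracellular part of the receptor, and lies at chr9:116067389-116067463 on the reverse strand of NCBIM37, the assembly also called mm9. The spliced mRNA is shown with this exon in capitals and 15 bases of each neighbouring exon in lower case.
Tgfbr2 exon 2: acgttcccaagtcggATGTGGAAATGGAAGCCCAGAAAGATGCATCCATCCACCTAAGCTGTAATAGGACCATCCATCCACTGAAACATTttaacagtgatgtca
The form with this exon made up 45.2% of the known forms' FPKM in mucosal PDGFRα+ cells and 42.4% in mucosa. It made up 50.7% in PDGFRα+ cells, 37.1% in ICC, 49.0% in SMCs and 43.1% in SM tissue of the colon. The jejunal shares were 43.4% in the library labelled PDGFRα+ cells, 36.9% in ICC, 37.1% in SMCs and 43.2% in SM tissue. ICC of both organs and jejunal SMCs lay lowest, at about 37%, and colonic PDGFRα+ cells and colonic SMCs highest. A further variant of 4418 bases, which shares a junction with the reference, held 25.9% to 37.8% of *Tgfbr2* over the 10 libraries. Shares of variants were estimated by the assembler and carry no error here.

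*Tgfbr3* (XLOC_107522) lies on chromosome 5 at 107535589 to 107718614 and encodes betaglycan. Its level was 21.9 FPKM in mucosal PDGFRα+ cells and 6.21 FPKM in mucosa. The colonic muscle libraries held 28.8 FPKM in PDGFRα+ cells, 14.7 FPKM in ICC, 22.0 FPKM in SMCs and 29.4 FPKM in SM tissue, and the jejunal ones 24.4 FPKM in the library labelled PDGFRα+ cells, 17.7 FPKM in ICC, 26.6 FPKM in SMCs and 37.9 FPKM in SM tissue. ICC were the lowest muscle library in each organ. The ratio of *Tgfbr3* to *Tgfbr2* was 0.221 in mucosal PDGFRα+ cells, 0.494 in colonic PDGFRα+ cells and 0.240 in colonic ICC. It was 1.21 in colonic SMCs, 1.4 in jejunal SMCs and 1.05 in jejunal SM tissue, the 3 libraries in which the co-receptor mRNA exceeded that of the type II receptor, and it was 0.531 in jejunal ICC.

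*Ltbp1* (XLOC_060488) lies on chromosome 17 at 75404824 to 75791109 and encodes a matrix protein that binds latent forms of each ligand. It stood at 21.1 FPKM in mucosal PDGFRα+ cells and 7.03 FPKM in mucosa. Colonic muscle held 33.6 FPKM in PDGFRα+ cells, 27.4 FPKM in ICC, 28.6 FPKM in SMCs and 37.2 FPKM in SM tissue. Jejunal muscle held 28.0 FPKM in the library labelled PDGFRα+ cells, 11.9 FPKM in ICC, 38.4 FPKM in SMCs and 43.8 FPKM in SM tissue. Jejunal ICC stood apart from the other muscle libraries, and *Ltbp1* headed the 10 genes in jejunal SMCs.

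*Ltbp1* is transcribed from starts 173.24 kb apart for its known long and short forms. Variants that begin at the start of the long form made up 17.8% of *Ltbp1* in mucosal PDGFRα+ cells and 24.0% in mucosa, against 48.4% in colonic PDGFRα+ cells and 44.0% in colonic SM tissue. Those of the short form's start made up 60.5% in mucosal PDGFRα+ cells and 46.3% in mucosa, against 20.8% in colonic PDGFRα+ cells and 29.3% in colonic SM tissue. Both mucosal libraries therefore leaned to the short form's start, and colonic PDGFRα+ cells to the long form's. Jejunal SM tissue had the largest long-start share, 49.9%, and the smallest short-start share, 13.7%. Variants from other starts, which match no known form, held 8.83% to 36.3%.

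*Ltbp2* (XLOC_028980) lies on chromosome 12 at 86095509 to 86249319. Its protein binds fibrillin but, unlike the others of the family, does not bind latent TGF-β. Its level was 1.32 FPKM in mucosal PDGFRα+ cells and 0.11 FPKM in mucosa, near the lower limit of what the tables list. Colonic muscle held 2.05 FPKM in PDGFRα+ cells, 13.1 FPKM in ICC, 4.90 FPKM in SMCs and 2.81 FPKM in SM tissue. Jejunal muscle held 6.33 FPKM in the library labelled PDGFRα+ cells, 3.11 FPKM in ICC, 14.4 FPKM in SMCs and 21.2 FPKM in SM tissue. The order of the cell types was reversed between the organs, with ICC highest in colon and lowest in jejunum. Of its annotated exons, 764 bases overlap exons of *D030025P21Rik* on the opposite strand, and no source used here says that strand was used, so reads of the 2 genes may not be separable there. The variant that matches the reference mRNA was a minor one of at most 1.84 FPKM in any library, and on the log2(FPKM + 1) scale ratios of such low values are pulled towards 0. Taken alone, it stood at 1.59 FPKM in colonic ICC and 0.433 FPKM in colonic SM tissue, and put *Ltbp2* below the 2-fold threshold in 9 of the comparisons given further on, with log2 ratios between -0.93 and 0.86.

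*Ltbp3* (XLOC_072048) lies on chromosome 19 at 5740904 to 5771401 and encodes a protein that binds latent TGF-β and is known from bone and tooth development. It reached 70.5 FPKM in mucosal PDGFRα+ cells, against 6.28 FPKM in mucosa. In the colon it stood at 204 FPKM in PDGFRα+ cells, 58.6 FPKM in ICC, 45.7 FPKM in SMCs and 47.9 FPKM in SM tissue. In the jejunum it stood at 51.4 FPKM in the library labelled PDGFRα+ cells, 40.2 FPKM in ICC, 27.7 FPKM in SMCs and 34.5 FPKM in SM tissue. Colonic PDGFRα+ cells exceeded each of the other 9 libraries by more than 2-fold.

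*Ltbp4* (XLOC_127483) lies on chromosome 7 at 28090147 to 28124689, 1.60 Mb from *Tgfb1*, and encodes the member that binds mainly latent TGF-β1 and is needed for elastic fibre assembly. It was the most abundant of the 10 genes in 8 libraries. Its level was 341 FPKM in mucosal PDGFRα+ cells and 90.2 FPKM in mucosa, and 666 FPKM in PDGFRα+ cells, 245 FPKM in ICC, 79.1 FPKM in SMCs and 178 FPKM in SM tissue of the colon. In the jejunum it was 137 FPKM in the library labelled PDGFRα+ cells, 37.3 FPKM in ICC, 28.0 FPKM in SMCs and 87.2 FPKM in SM tissue. Colonic PDGFRα+ cells were highest and jejunal SMCs lowest, and in colonic PDGFRα+ cells *Ltbp4* ranked 55 among the 15735 genes above 0.

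Most of the *Ltbp4* mRNA came from 2 variants. The known short form, of 5102 bases, made up 38.0% of *Ltbp4* in jejunal ICC and 53.3% to 87.6% in the other 9 libraries. A variant of 2817 bases that shares a junction with the reference made up 9.90% to 45.8%, and in jejunal ICC, at 43.0%, it exceeded the short form. The known long form, of 5301 bases, made up 17.6% in jejunal ICC and at most 1.89% elsewhere. The starts of the 2 known forms lie 4.03 kb apart in the annotation, and the 250 bases before each are shown because the variants used them so unequally. The tables give no exon borders, so the link between a known form and its annotated start rests on its length. Both windows lie on the reverse strand of chromosome 7 of NCBIM37, the long form's at chr7:28122712-28122961 and the short form's at chr7:28118683-28118932, and capitals mark the GC box GGGCGG read on either strand.
Ltbp4 long form, 250 bases before the start: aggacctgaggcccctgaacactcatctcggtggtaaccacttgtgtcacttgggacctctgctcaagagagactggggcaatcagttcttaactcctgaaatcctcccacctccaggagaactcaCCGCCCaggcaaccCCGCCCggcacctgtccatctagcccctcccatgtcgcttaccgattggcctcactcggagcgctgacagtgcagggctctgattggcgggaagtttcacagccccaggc
Ltbp4 short form, 250 bases before the start: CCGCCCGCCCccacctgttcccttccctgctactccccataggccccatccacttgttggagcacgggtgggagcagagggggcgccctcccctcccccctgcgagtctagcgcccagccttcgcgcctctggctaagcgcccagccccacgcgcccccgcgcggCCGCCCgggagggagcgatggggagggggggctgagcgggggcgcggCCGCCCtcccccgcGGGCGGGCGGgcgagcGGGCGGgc
The window of the short form held 3 GC boxes forward and 4 in reverse, some of them overlapping, with 79.2% G and C. The window of the long form held 0 forward and 2 in reverse, with 59.6% G and C. At least 1 GC box was found in 41.1% of the 45953 windows of this length before annotated protein-coding starts. Neither window held the TATA box letters TATAAA, which 10.5% of the 45953 windows held on 1 strand or the other. A match of letters is a description of the sequence and not a measured site.

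**Figure D2:**
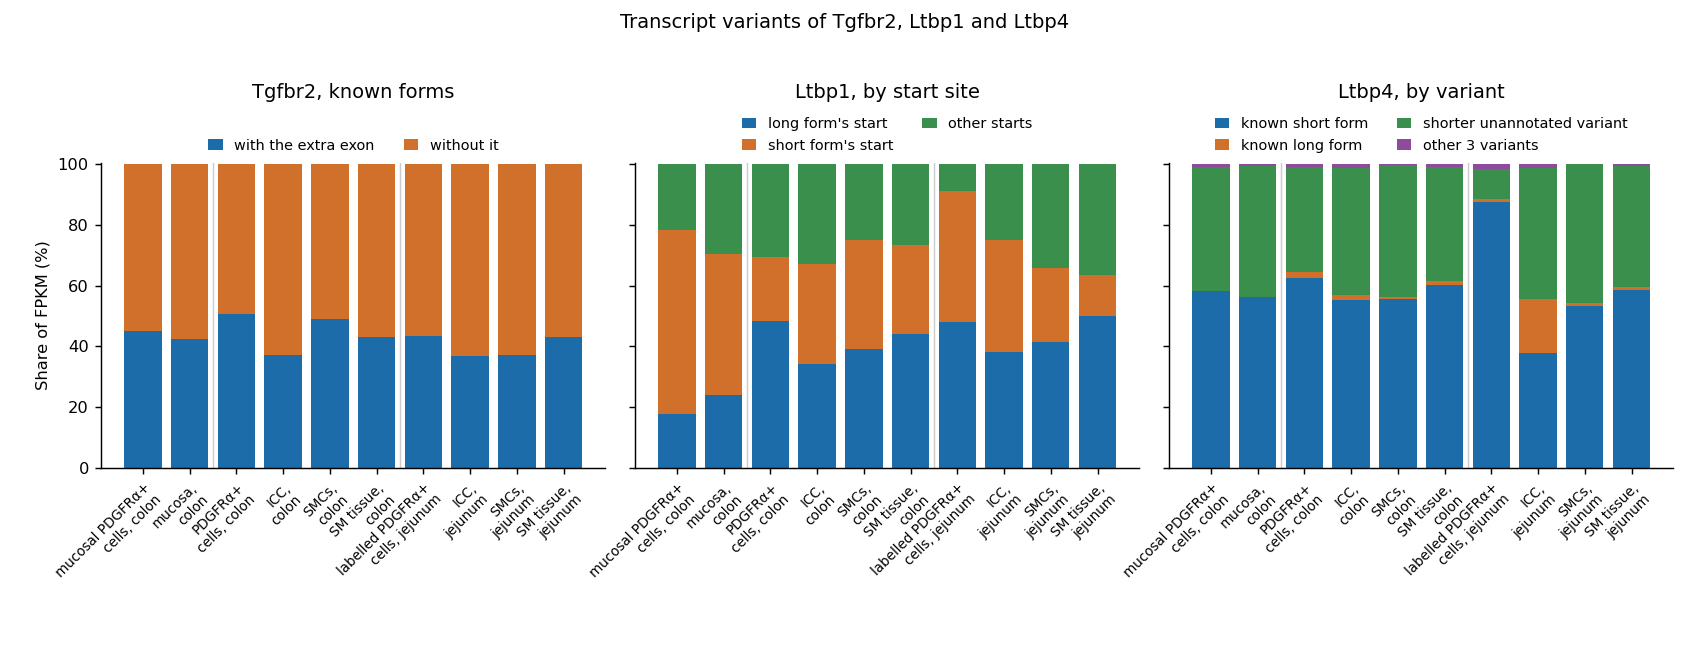
Share of FPKM in percent (vertical) in each of the 10 libraries (horizontal) for the known forms of *Tgfbr2* with and without exon 2, the *Ltbp1* variants by start, and the *Ltbp4* variants. The *Tgfbr2* exon is present in 36.9% to 50.7% of the known forms, the *Ltbp1* short start reaches 60.5% in mucosal PDGFRα+ cells, and the *Ltbp4* long form reaches 17.6% only in jejunal ICC.

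The FPKM of the genes were also summed within their roles. Ligand mRNA came to 37.2 FPKM in mucosal PDGFRα+ cells and 9.31 FPKM in mucosa. It came to 135 FPKM in PDGFRα+ cells, 76.6 FPKM in ICC, 33.5 FPKM in SMCs and 56.9 FPKM in SM tissue of the colon, and to 54.6 FPKM in the library labelled PDGFRα+ cells, 67.8 FPKM in ICC, 28.6 FPKM in SMCs and 39.7 FPKM in SM tissue of the jejunum. *Tgfb1* was the main ligand mRNA in mucosa, with 69.8% in mucosal PDGFRα+ cells and 64.9% in whole mucosa, and held 15.7% to 23.1% in the 8 muscle libraries. *Tgfb3* was the main one in ICC, with 68.2% in colon and 72.7% in jejunum. It also led in jejunal SMCs, with 53.5%, and in the library labelled jejunal PDGFRα+ cells, with 46.8%. In jejunal SM tissue it held 39.6%, against 39.1% for *Tgfb2*. *Tgfb2* led in colonic SMCs, with 46.3%, and in colonic SM tissue, with 46.9%. In colonic PDGFRα+ cells *Tgfb2* and *Tgfb3* held almost equal shares, 42.0% and 42.3%.

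Receptor mRNA varied less, between 136 FPKM in mucosal PDGFRα+ cells and 41.4 FPKM in mucosa. *Tgfbr2* held 72.6% of it in mucosal PDGFRα+ cells, 66.0% in colonic ICC and 58.5% in colonic PDGFRα+ cells, whereas *Tgfbr3* led in SMCs, with 38.9% in colon and 43.4% in jejunum, and in jejunal SM tissue, with 41.0%. Binding protein mRNA summed to 434 FPKM in mucosal PDGFRα+ cells and 104 FPKM in mucosa, to 906 FPKM in PDGFRα+ cells, 344 FPKM in ICC, 158 FPKM in SMCs and 266 FPKM in SM tissue of the colon, and to 223, 92.5, 108 and 187 FPKM in the matching jejunal libraries. *Ltbp4* held 78.6% in mucosal PDGFRα+ cells, 73.6% in colonic PDGFRα+ cells and 49.9% in colonic SMCs, but 25.8% in jejunal SMCs, where *Ltbp1* held 35.4%. In jejunal ICC *Ltbp3* and *Ltbp4* were close, at 43.4% and 40.4%.

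**Figure D3:**
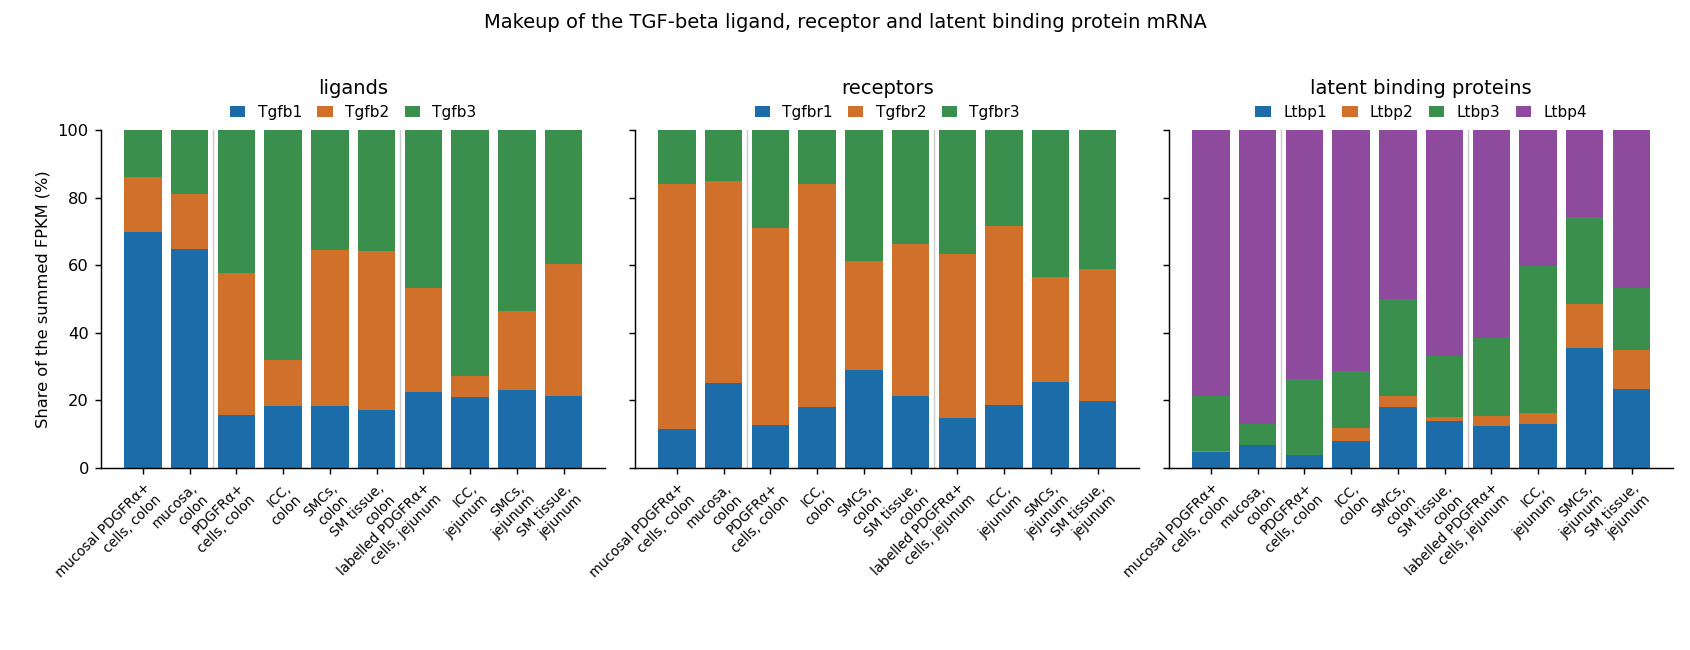
Share of the summed FPKM in percent (vertical) that each gene holds within the ligands, the receptors and the latent TGF-β binding proteins, in each of the 10 libraries (horizontal); segments of a bar add up to 100%. *Tgfb1* leads the ligands in the 2 mucosal libraries, and *Tgfb3* has its largest shares in ICC of both organs. *Ltbp4* leads the binding proteins except in jejunal ICC and jejunal SMCs.

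Sorted PDGFRα+ cells were first set against the tissue they came from, which asks how far these genes are concentrated in them. In mucosal PDGFRα+ cells 9 of the 10 genes were at least 2-fold higher than in mucosa, with *Tgfbr1* (log2 ratio 0.54) the exception. Of the 12840 genes that reached 1 FPKM in either library, 14.1% were higher and 15.4% lower, and 0 of the 10 genes were lower. The median of the 10 log2 ratios was 1.58, against -0.10 over all genes. *Ltbp3* led with a log2 ratio of 3.30, an 11.2-fold difference in FPKM, and was followed by *Tgfbr2* (1.96), *Tgfb1* (1.94) and *Ltbp4* (1.91). *Ltbp2* was 1.07 on the log2 scale, at levels of 1.32 and 0.11 FPKM. The 6 fibroblast matrix genes were all at least 2-fold higher here too, and summed to 8856 FPKM in mucosal PDGFRα+ cells and 875 FPKM in mucosa. The 5 epithelial genes, summing to 727 and 2702 FPKM, were all lower. The part of either in the differences of the TGF-β genes was not tested.

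Colonic PDGFRα+ cells had 5 of the 10 genes at least 2-fold higher than colonic SM tissue and 0 lower, where 9.00% of 12990 genes were higher and 17.9% lower. These were *Ltbp3* (log2 ratio 2.07), *Ltbp4* (1.90), *Tgfb3* (1.44), *Tgfb2* (1.06) and *Tgfb1* (1.03), so each ligand was included. *Tgfb1* and *Tgfb2* lay just past the threshold and were at 0.97 and 0.96 when levels were rescaled to TPM. The receptors were not among them: *Tgfbr2* was 0.57, *Tgfbr3* -0.03 and *Tgfbr1* -0.52. The median ratio was 0.80 for the 10 genes and -0.11 for all genes. Fibroblast matrix genes were higher in 5 of 6, with a sum of 13839 FPKM in colonic PDGFRα+ cells and 3857 FPKM in colonic SM tissue, and 5 immediate early genes, which respond to tissue dissociation, summed to 612 and 84.0 FPKM. Their part in the result was not tested.

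The library labelled jejunal PDGFRα+ cells had 0 of the 10 genes higher and 1 lower than jejunal SM tissue, with 5.23% and 4.69% of 12820 genes called. After rescaling to TPM the shares were 5.26% higher and 10.8% lower. The gene was *Ltbp2*, at -1.60. The other ratios ran between -0.83 for *Tgfbr1* (-1.05 after rescaling to TPM) and 0.67 for *Tgfb3*, and the median was -0.03 against -0.02 for all genes. The 3 ligands, *Ltbp3* and *Ltbp4* were the 5 genes above 0. Fibroblast matrix genes were at least 2-fold higher in 3 of 6, with sums of 3173 FPKM in this library and 2239 FPKM in jejunal SM tissue. The 5 epithelial genes were all higher, summing to 83.1 and 10.8 FPKM. The part of either list was not tested.

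ICC and SM tissue were compared in both organs. Colonic ICC had 2 genes higher, *Ltbp2* (1.88) and *Tgfb3* (1.31), and 1 lower, *Tgfb2* (-1.28), with *Tgfbr3* at -0.96 and, under median ratio scaling, -1.19. Here 7.67% of 13105 genes were higher and 13.3% lower, or 4.88% and 15.3% with median ratio scaling. Jejunal ICC had 1 gene higher, *Tgfb3* (1.59), and 5 lower, namely *Ltbp2* (-2.44), *Ltbp1* (-1.79), *Tgfb2* (-1.65), *Ltbp4* (-1.20) and *Tgfbr3* (-1.06, or -0.93 after rescaling to TPM). Over all 12742 genes 8.11% were higher and 11.6% lower, or 14.1% and 12.7% after rescaling to TPM. The median of the 10 genes was 0.37 in colon (0.14 for all genes) and -0.83 in jejunum (0.04 for all genes). *Tgfb3* was thus higher and *Tgfb2* lower in ICC of both organs, while *Ltbp2* and *Ltbp4* had opposite signs. The complete match to the reference mRNA of *Tgfb2*, taken alone, went the other way in jejunum, with a log2 ratio of 1.03. Fibroblast matrix genes were lower in 2 of 6 in colonic ICC, with sums of 3719 FPKM in ICC and 3857 FPKM in SM tissue, and in 6 of 6 in jejunal ICC, with sums of 535 FPKM in ICC and 2239 FPKM in SM tissue. The 6 smooth muscle genes were all lower in ICC of both organs, summing to 1871 FPKM in ICC and 21166 FPKM in SM tissue of the colon and to 2851 FPKM in ICC and 18683 FPKM in SM tissue of the jejunum. So were the 6 enteric neuron genes, with 58.6 FPKM in ICC and 511 FPKM in SM tissue of the colon and 85.9 FPKM in ICC and 387 FPKM in SM tissue of the jejunum. The 5 immediate early genes summed to 464 FPKM in colonic ICC and 84.0 FPKM in colonic SM tissue, and the 4 acinar genes to 53.5 FPKM in jejunal ICC and 0 FPKM in jejunal SM tissue. The part of these genes in the ratios was not tested.

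SMCs had few of these genes at least 2-fold from their tissue. In colon 0 genes were higher and 2 lower, *Ltbp4* (-1.16) and *Tgfbr2* (-1.06), where 1.72% of 12772 genes were higher and 17.6% lower. With median ratio scaling these 2 were at -0.91 and -0.81, so none then passed the threshold. In jejunum 0 genes were higher and 2 lower, *Ltbp4* (-1.61) and *Tgfb2* (-1.11), beside 2.17% and 12.9% of 12460 genes. After rescaling to TPM, 27.0% of genes were lower in colon and 20.2% in jejunum, and with median ratio scaling 3.13% were higher and 14.8% lower in colon. In jejunum *Tgfbr2* was at -0.89, and at -1.05 after rescaling to TPM. The members' medians, -0.50 in colon and -0.40 in jejunum, were below those of all genes (-0.32 and -0.15). With FPKM as given, 19 of the 20 ratios were negative, *Ltbp2* in colon (0.63) being the exception. The share of all genes below 0 was not counted. Median ratio scaling shifted the median gene by 0.22 in colon and 0.06 in jejunum. Smaller in size than these shifts were *Ltbp3* (-0.06) and *Tgfbr1* (-0.16) in colon and *Tgfb3* (-0.04) in jejunum. Fibroblast matrix genes were at least 2-fold lower in 3 of 6 in each organ, and summed to 2943 FPKM in colonic SMCs and 3857 FPKM in colonic SM tissue, and to 1908 FPKM in jejunal SMCs and 2239 FPKM in jejunal SM tissue. Their part was not tested.

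**Figure D4:**
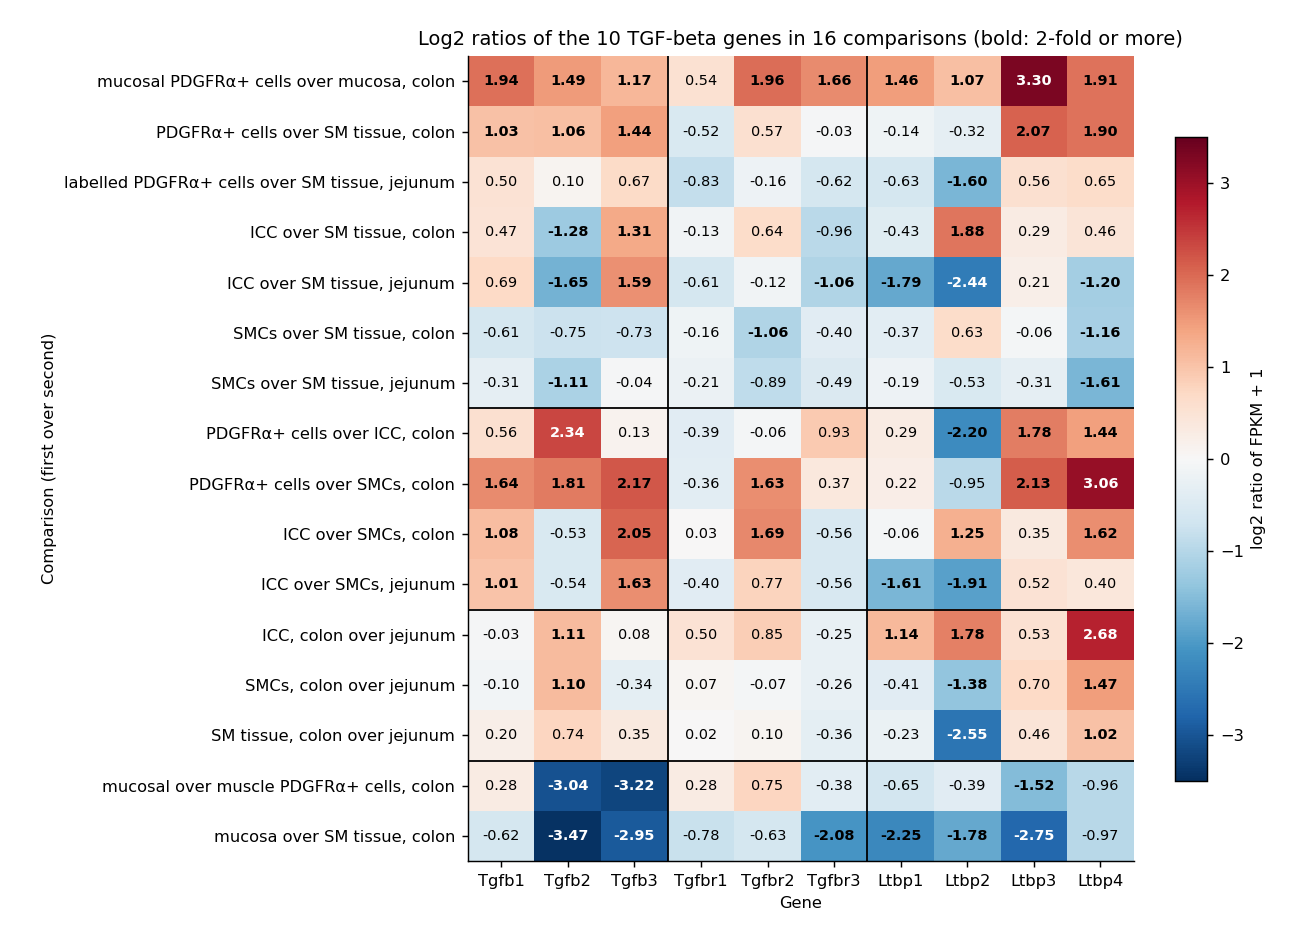
Log2 ratio of FPKM + 1 (colour and printed value) of each of the 10 genes (horizontal) in 16 comparisons of 2 libraries (vertical), the first library named over the second; bold values are at least 2-fold apart. The top row, mucosal PDGFRα+ cells over mucosa, is positive for all 10 genes with a highest value of 3.30, and the SMC rows over SM tissue are negative but for *Ltbp2* in colon.

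Cell types of the same organ were then compared directly. Colonic PDGFRα+ cells had 6 genes at least 2-fold higher than colonic SMCs and 0 lower, where 16.4% of 11923 genes were higher and 8.93% lower, or 12.9% and 11.2% with median ratio scaling. *Ltbp4* led with a log2 ratio of 3.06, 8.42-fold in FPKM, and *Tgfb3* (2.17), *Ltbp3* (2.13), *Tgfb2* (1.81), *Tgfb1* (1.64) and *Tgfbr2* (1.63) followed. The median was 1.64 against 0.24 for all genes. *Ltbp2* was at -0.95 and passed the threshold as lower under both scalings. Fibroblast matrix genes were higher in 6 of 6, and their part was not tested.

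Against colonic ICC, colonic PDGFRα+ cells had 3 genes higher, *Tgfb2* (2.34), *Ltbp3* (1.78) and *Ltbp4* (1.44), and 1 lower, *Ltbp2* (-2.20). All genes gave 6.47% higher and 9.17% lower of 12264, with 5.98% and 16.1% after rescaling to TPM and 8.54% and 6.73% with median ratio scaling. *Tgfb3* (0.13) and *Tgfbr2* (-0.06) were nearly equal in these 2 cell types, and *Tgfbr3*, at 0.93, was at 1.17 with median ratio scaling. The complete match to the reference mRNA of *Tgfb2*, taken alone, was at 0.69. The medians were 0.43 for the 10 genes and -0.25 for all genes. The 6 fibroblast matrix genes summed to 13839 FPKM in PDGFRα+ cells and 3719 FPKM in ICC, and 5 of them were at least 2-fold higher, their part again not tested.

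Colonic ICC had 5 genes higher than colonic SMCs and 0 lower, *Tgfb3* (2.05), *Tgfbr2* (1.69), *Ltbp4* (1.62), *Ltbp2* (1.25) and *Tgfb1* (1.08). Among 12234 genes 20.6% were higher and 6.49% lower, a split that became 35.4% and 5.97% after rescaling to TPM and 10.4% and 11.2% with median ratio scaling. That scaling left 3 of the 10 genes higher, *Tgfb1* at 0.62 and *Ltbp2* at 0.81 dropping below 2-fold, and put 2 lower, *Tgfb2* (-1.0) and *Tgfbr3* (-1.04). Jejunal ICC had 2 genes higher than jejunal SMCs, *Tgfb3* (1.63) and *Tgfb1* (1.01), and 2 lower, *Ltbp2* (-1.91) and *Ltbp1* (-1.61), beside 13.7% and 7.28% of 12135 genes, or 27.7% and 5.67% after rescaling to TPM. *Tgfb1* was at 0.87 with median ratio scaling, and *Tgfbr2*, at 0.77, was at 1.09 after rescaling to TPM. The medians were 0.71 in colon (0.49 for all genes) and 0.00 in jejunum (0.21 for all genes). *Tgfb1* and *Tgfb3* were thus higher in ICC than in SMCs of either organ, and *Tgfb3* kept this under all alternatives run. In colonic ICC 3 of the 6 fibroblast matrix genes were higher and 0 lower, with sums of 3719 FPKM in ICC and 2943 FPKM in SMCs. In jejunal ICC 1 was higher and 3 lower, with sums of 535 FPKM in ICC and 1908 FPKM in SMCs, and their part was not tested.

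Colon and jejunum were compared for ICC, SMCs and SM tissue. The PDGFRα+ libraries of the 2 organs were not compared, because the jejunal one went against its label. *Ltbp4* was higher in colon in all 3 pairs, with log2 ratios of 2.68 in ICC, 1.47 in SMCs and 1.02 in SM tissue. *Ltbp2* was lower in colonic SMCs (-1.38) and colonic SM tissue (-2.55) but higher in colonic ICC (1.78). *Tgfb2* was higher in colonic ICC (1.11) and SMCs (1.1) and was at 0.74 in SM tissue. *Tgfb1* and *Tgfb3* had log2 ratios between -0.34 and 0.35 over the 3 pairs.

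**Figure D5:**
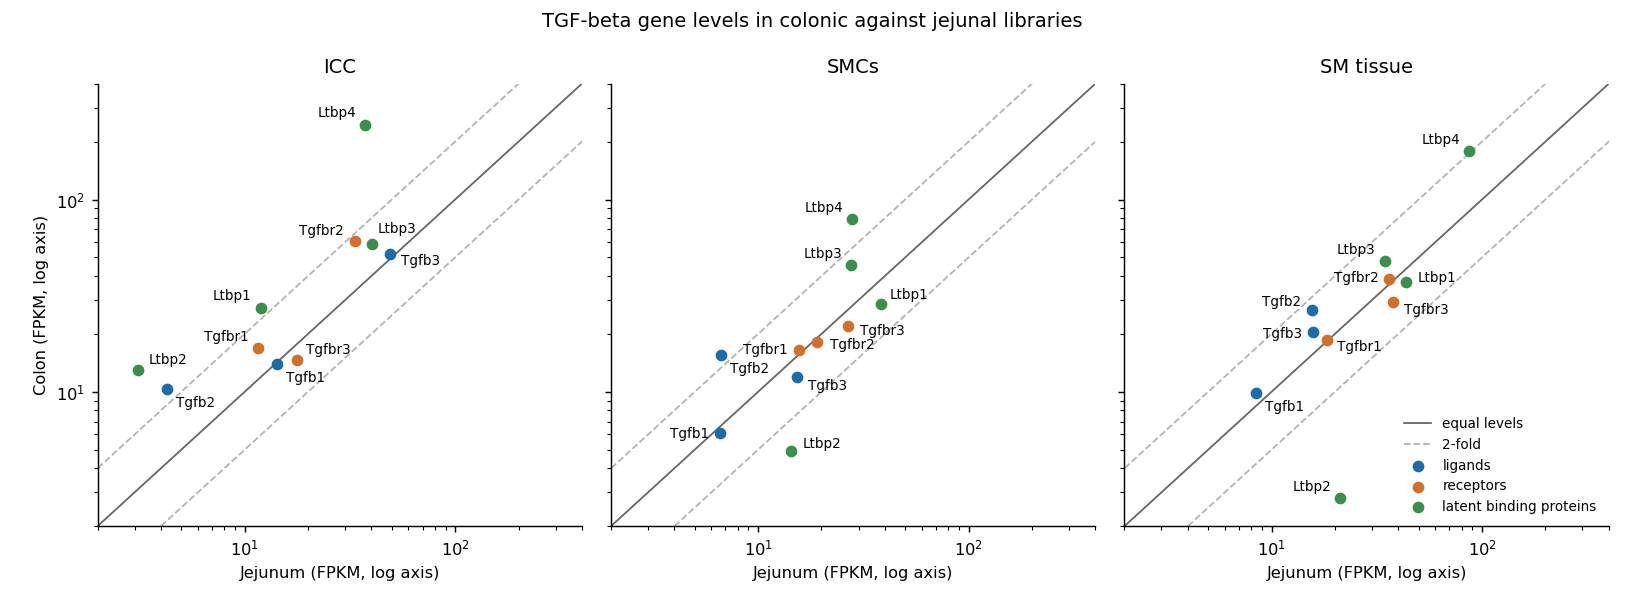
Level of each of the 10 genes in the colonic library (vertical, FPKM, log axis) against the jejunal library (horizontal, FPKM, log axis) for ICC, SMCs and SM tissue, 1 point per gene and coloured by role; the solid line marks equal FPKM and the dashed lines a 2-fold difference in FPKM. *Ltbp4* lies above the upper dashed line in all 3 panels, and *Ltbp2* lies above it in ICC and below the lower one in SMCs and SM tissue.

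Counted over the 10 genes, ICC had 4 higher in colon (*Ltbp4*, *Ltbp2*, *Ltbp1* at 1.14 and *Tgfb2*) and 0 lower, where 7.63% of 12384 genes were higher and 6.15% lower. *Ltbp1* and *Tgfb2* were at 0.98 and 0.96 with median ratio scaling, which left 2 of the 4. SMCs had 2 higher and 1 lower, beside 2.36% and 2.61% of 11321 genes, or 3.20% and 2.09% with median ratio scaling. SM tissue had 1 higher and 1 lower, beside 2.88% and 1.37% of 12832 genes. The 10 genes' medians were 0.69 in ICC, -0.08 in SMCs and 0.15 in SM tissue, against 0.13, -0.14 and 0.05 for all genes. Beside the ICC result, all 6 fibroblast matrix genes were at least 2-fold higher in colonic ICC, with a sum of 3719 FPKM in colon and 535 FPKM in jejunum, *Pdgfra* stood at 42.2 and 5.63 FPKM, and the 4 acinar genes summed to 0.229 and 53.5 FPKM. The part of these genes in the ICC difference was not tested. In SM tissue the fibroblast matrix sum was 3857 FPKM in colon and 2239 FPKM in jejunum.

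Mucosa and muscle were compared in the colon, across 2 tables. Mucosal PDGFRα+ cells had 0 genes higher and 3 lower than PDGFRα+ cells of the muscle layer, *Tgfb3* (-3.22), *Tgfb2* (-3.04) and *Ltbp3* (-1.52), where 14.2% of 12711 genes were higher and 8.45% lower. *Ltbp4* was at -0.96 (-1.04 with median ratio scaling), *Tgfbr2* at 0.75 and *Tgfb1* at 0.28. The medians were -0.52 for the 10 genes and 0.09 for all genes. Fibroblast matrix genes were lower in 3 of 6, with sums of 8856 and 13839 FPKM, and the 5 epithelial genes summed to 727 and 5.58 FPKM, their part not tested. Whole mucosa had 0 genes higher and 6 lower than SM tissue, *Tgfb2* (-3.47), *Tgfb3* (-2.95), *Ltbp3* (-2.75), *Ltbp1* (-2.25), *Tgfbr3* (-2.08) and *Ltbp2* (-1.78), beside 19.6% and 22.1% of 13832 genes. *Ltbp4* was at -0.97, and at -1.21 after rescaling to TPM, which also put *Tgfbr1* at -1.04. All 10 ratios were negative, and the smallest in size were those of *Tgfb1* (-0.62) and *Tgfbr2* (-0.63). The medians were -1.93 for the 10 genes and 0.04 for all genes. Fibroblast matrix genes were lower in 6 of 6, with sums of 875 FPKM in mucosa and 3857 FPKM in SM tissue, and smooth muscle genes in 6 of 6, with 134 FPKM in mucosa and 21166 FPKM in SM tissue. Epithelial genes summed to 2702 FPKM in mucosa and 40.1 FPKM in SM tissue, and the part of these lists in the ratios was not tested.

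Other genes of the pathway were read from 4 lists. Of the 11 SMAD signal carriers and inhibitors, at most 3 were at least 2-fold apart in any comparison of muscle libraries. That count came from colonic ICC over colonic SMCs, with 2 higher and 1 lower, beside 20.6% and 6.49% of all genes, so it was near the share of all genes. In colonic PDGFRα+ cells over SM tissue 1 was higher, *Smad3*, the main transcriptional carrier of the signal, with 24.4 and 8.43 FPKM, and 0 were lower, beside 9.00% and 17.9% of all genes. *Smad3* stood at 16.9 FPKM in colonic ICC and 4.97 FPKM in colonic SMCs. *Smad6*, which inhibits signalling of the related BMP receptors, stood at 2.98 FPKM in colonic ICC and 17.0 FPKM in jejunal ICC, the largest difference of the list between the organs. In mucosal PDGFRα+ cells over mucosa 3 were higher, *Smad6* (42.1 and 12.3 FPKM), the SMAD repressor *Ski* (55.3 and 21.5 FPKM) and *Smad3* (26.7 and 11.7 FPKM), and 0 were lower, beside 14.1% and 15.4% of all genes.

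The list of 20 matrix and activation genes, which hold or free the latent complex, was largely higher in mucosal PDGFRα+ cells. In mucosal PDGFRα+ cells 16 of the 19 measured were higher than in mucosa and 1 lower, with a median log2 ratio of 2.43. Over all genes 14.1% were higher and 15.4% lower, with a median of -0.10. The 6 fibroblast matrix genes were all higher too, with a median of 3.35 and sums of 8856 FPKM in mucosal PDGFRα+ cells and 875 FPKM in mucosa, and their part was not tested. *Plau*, the urokinase, stood at 311 and 14.8 FPKM, *Mmp2*, a gelatinase, at 1138 and 67.9 FPKM, and *Emilin1*, an elastic fibre protein, at 221 and 15.1 FPKM. In colonic PDGFRα+ cells 5 of 18 were higher than in SM tissue and 1 lower, beside 9.00% and 17.9% of all genes, among them *Mmp2* (622 and 81.5 FPKM), *Bmp1*, a procollagen proteinase (162 and 30.2 FPKM), and *Mmp14*, a membrane protease (136 and 43.6 FPKM). Colonic ICC had 2 higher and 3 lower of 18 than SM tissue, beside 7.67% and 13.3% of all genes. *Fbn2*, the fibrillin of developing tissue, was higher in colonic ICC, at 44.6 FPKM against 8.11 FPKM in SM tissue, and stood at 1.84 FPKM in colonic PDGFRα+ cells. *Itgb3*, an integrin subunit, was lower in colonic ICC, at 5.72 FPKM against 24.2 FPKM in SM tissue. SMCs had 2 higher and 4 lower of 18 in colon, beside 1.72% and 17.6% of all genes, and 1 higher and 2 lower of 19 in jejunum, beside 2.17% and 12.9%, with *Mmp2* lower in both (14.3 and 81.5 FPKM in colon, 5.64 and 36.7 FPKM in jejunum).

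Among 7 accessory receptors, *Eng* and *Acvrl1* parted the cell types. *Eng* encodes endoglin and *Acvrl1* a type I receptor, both best known from endothelium. *Eng* stood at 154 FPKM in PDGFRα+ cells, 112 FPKM in ICC, 9.23 FPKM in SMCs and 29.0 FPKM in SM tissue of the colon, and at 84.2 FPKM in ICC, 9.64 FPKM in SMCs and 20.6 FPKM in SM tissue of the jejunum. *Acvrl1* stood at 47.5, 28.6, 2.17 and 8.97 FPKM in the same colonic libraries and at 60.3, 1.60 and 8.14 FPKM in the jejunal ones. The 5 endothelial marker genes summed to 8.29 FPKM in colonic PDGFRα+ cells, 3.28 FPKM in colonic ICC and 50.8 FPKM in colonic SM tissue, and to 5.82 FPKM in jejunal ICC and 27.5 FPKM in jejunal SM tissue. Their part was not tested. *Cd109*, a membrane protein that binds TGF-β, stood at 0.975 FPKM in colonic PDGFRα+ cells and 5.24 FPKM in colonic ICC, against 22.1 FPKM in colonic SMCs. Mucosal PDGFRα+ cells held 19.6 FPKM of *Cd109*, and jejunal SMCs held 6.09 FPKM.

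The list of 15 target genes shares *Col1a1*, *Col1a2* and *Col3a1* with the fibroblast matrix genes. In colonic SMCs 4 of 14 targets, *Cdkn1a*, *Junb*, *Tgfb1i1* and *Ctgf*, were higher than in SM tissue and 0 lower, beside 1.72% and 17.6% of all genes. In jejunal SMCs the same 4 of 14 were higher and 1 lower, beside 2.17% and 12.9%. *Cdkn1a*, a cell cycle inhibitor, led with 272 FPKM in colonic SMCs and 19.1 FPKM in colonic SM tissue, and 253 FPKM in jejunal SMCs and 8.94 FPKM in jejunal SM tissue. *Ctgf*, a matricellular protein, stood at 142 and 63.9 FPKM in the colonic pair and 104 and 40.1 FPKM in the jejunal pair. The 5 immediate early genes summed to 326 FPKM in colonic SMCs and 84.0 FPKM in colonic SM tissue, and to 673 FPKM in jejunal SMCs and 207 FPKM in jejunal SM tissue. Smooth muscle genes were at least 2-fold higher in 5 of 6 in colonic SMCs and in 2 of 6 in jejunal SMCs. The part of either list was not tested. In ICC 2 of 14 were higher and 3 lower in colon, beside 7.67% and 13.3% of all genes, with *Tgfbi*, a TGF-β induced matrix protein, at 558 FPKM against 112 FPKM in SM tissue, and 2 higher and 6 lower in jejunum, beside 8.11% and 11.6%, with *Postn*, periostin, at 22.5 FPKM against 207 FPKM. In colonic PDGFRα+ cells 6 were higher and 2 lower of 14, beside 9.00% and 17.9% of all genes, *Col1a1* standing at 2794 FPKM against 701 FPKM in SM tissue and *Postn* at 15.7 FPKM against 340 FPKM. In this pair fibroblast matrix genes were higher in 5 of 6. The 5 immediate early genes summed to 612 FPKM in colonic PDGFRα+ cells and 84.0 FPKM in colonic SM tissue. The part of both lists in this count was not tested. Mucosal PDGFRα+ cells held 870 FPKM of *Postn*, and 11 of the 15 targets were higher and 2 lower there than in mucosa, beside 14.1% and 15.4% of all genes. The 6 fibroblast matrix genes were higher there as well, and their part was not tested.

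Genes with a like pattern over the libraries were sought for each of the 10 genes by Pearson's r of log2(FPKM + 1) over all 10 libraries, among the 9017 genes that reached 10 FPKM in any library. With 10 libraries that share tables, strains and cell mixtures, many genes reach a high r, and the values are given as a description. The closest were *Ypel4* to *Tgfb1* (r = 0.97), *Cry2* to *Tgfb2* (0.94), *Prrt1* to *Tgfb3* (0.97), *3110045C21Rik* to *Tgfbr1* (0.94), *Tcf4* to *Tgfbr2* (0.96) and *Grb10* to *Tgfbr3* (0.94). For the binding proteins they were *Fam26e* to *Ltbp1* (0.96), *Ranbp9* to *Ltbp2* (0.92), *Loxl1*, a lysyl oxidase of elastic fibres, to *Ltbp3* (0.97) and *Lamp2* to *Ltbp4* (0.96). Without the library labelled jejunal PDGFRα+ cells these r stayed between 0.92 and 0.98 over 9 libraries. Among the 10 genes themselves *Tgfb1* and *Tgfbr2* were the most alike (r = 0.90, Spearman's rho = 0.81), followed by *Tgfbr3* and *Ltbp1* (r = 0.89, rho = 0.92), and *Ltbp2* and *Ltbp4* were the least alike (r = -0.31, rho = -0.47).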

How the data were processed

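RNA-seq of 10 mouse libraries, 1 per condition, was read from 3 deposited tables. The authors aligned paired-end reads to mm9 with TopHat 1.4.1 and made FPKM per transcript variant with Cufflinks 2.0.2. No counts, intervals or depths are in the tables, so only FPKM could be compared. Values under 0.025 FPKM were set to 0, following the study's methods, and variants of a gene symbol were summed. Ratios were log2(FPKM + 1) differences over genes that reached 1 FPKM in either library, and 2-fold was the threshold. With 1 library per group no test was run. Labels gave each library's group.

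The 10 genes were chosen by symbol. Variants were named when highest on average or 25% or more of a gene at 5 FPKM or more. Some were named outside this rule, among them the complete match of *Tgfb2* and the long form of *Ltbp4*. Up to 4 genes per pathway list and comparison were named by largest ratio, and values of these and marker genes in other libraries were added after values were seen. The members, pathway lists (SMAD, latent complex and activation, accessory receptors, targets) and marker lists were chosen with earlier results of these data known. Alternatives were no cutoff, a pseudocount of 0.1 FPKM, filters of none and 10 FPKM, TPM, median ratio scaling and known variants only. Sequences came from NCBIM37 with gencode vM1 annotation. The steps were tested on simulated data. Scripts ran under Python 3.11.15 with pandas 2.3.3, numpy 2.4.6 and, for plots, matplotlib 3.10.9.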

Additional observations from a re-analysis of the deposited data

Results flagged for a closer look

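Some log2 ratios stood out because colon and jejunum moved in opposite directions, with 1 library on each side, and none of these differences was tested. *Ltbp2* had 3 of them. Its ratio in ICC over SM tissue was 1.88 in colon and -2.44 in jejunum, in ICC over SMCs 1.25 and -1.91, and in SMCs over SM tissue 0.63 and -0.53. *Ltbp4* in ICC over SM tissue was 0.46 in colon and -1.20 in jejunum. *Tgfbr2* in ICC over SM tissue was 0.64 and -0.12, and in PDGFRα+ cells over SM tissue 0.57 in colon and -0.16 in the jejunal library that went against its label. *Tgfbr1* in ICC over SMCs was 0.026 in colon and -0.40 in jejunum. Its colonic levels were nearly equal, 16.8 FPKM in ICC and 16.5 FPKM in SMCs. Median ratio scaling shifted the median gene of that colonic comparison by -0.45, more than the size of this ratio.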

How the results depend on the processing

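Of 1075 ratios recomputed under the 7 alternatives, 1031 kept their side of 2-fold, 20 fell below it and 21 passed it. A further 3 changed sign with the value before or after at least 2-fold. Changes of sign between values that both stayed under 2-fold were not counted apart and are among the 1031. The 3 were *Tgfb2* from known variants only, whose complete match to the reference is a minor variant: 1.03 in jejunal ICC over SM tissue, 1.09 in jejunal ICC over SMCs and -0.56 in ICC of colon over jejunum. Of 112 counts of the 10 genes at least 2-fold apart, 102 stayed within 1.5 times the count reported. With known variants only, which leaves out *Tgfb1* and shrinks *Ltbp2*, the counts became 1 for jejunal SMCs over SM tissue, 3 for the library labelled jejunal PDGFRα+ cells over SM tissue, 3 for colonic ICC over SMCs, 1 for SMCs of colon over jejunum, 2 for ICC of colon over jejunum and 1 for SM tissue of colon over jejunum. With TPM they became 2 for the library labelled jejunal PDGFRα+ cells and 3 for colonic PDGFRα+ cells, each over SM tissue. With median ratio scaling they became 0 for colonic SMCs over SM tissue and 2 for ICC of colon over jejunum. TPM shifted the median gene's ratio in a comparison by -0.23 to 0.31 on the log2 scale and median ratio scaling by -0.45 to 0.23. No paired analysis was possible because each condition has 1 library and the labels give no replicate numbers, and for the same reason no library could be left out of a group.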
